A study of Mus musculus with 95 samples.

Results

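The comparison described here set the cortex of control mice kept for 3 months (Con) against the cortex of mice taken at the start (T0). It used 16 of the 95 libraries of the series, all libraries of cortex that carry the treatment label Con (8) or T0 (8). All mice were C57BL/6J, the standard inbred laboratory strain. The sex letter was F for 4 animals of each group and M for the other 4, with 1 library per animal. Con animals were 205 days old by the ages given with the counts, 83 days older than T0 animals. Con animals were the control arm beside mice that spent the same 3 months in a torpor-like state (TLS). The 8 TLS cortex libraries entered the fit as well. They shared in the filter on low counts, the scaling, the term for sex and the estimate of the spread. Per the labels' protocols, mice of all groups were anaesthetised with isoflurane, killed by cervical dislocation, bled from the heart and perfused with PBS before the tissue was frozen. Polyadenylated RNA was sequenced from bulk tissue, and the labels give no clock time of collection. Con and T0 therefore differ at once in age, in the date of collection and in any handling of controls over the 3 months. Within F they also differ in the order of the library numbers, as given further on. These differences cannot be told apart here.

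The cerebral cortex holds excitatory and inhibitory neurons, astrocytes, oligodendrocytes, microglia and vessels. Neuronal firing and calcium entry switch on activity-regulated genes within minutes to hours: transcription factors of the Fos, Egr and Nr4a families first, then genes such as Bdnf, Homer1 and Nptx2 that act at synapses. The cAMP response element binding protein CREB drives many of them through short promoter sites. Cortex also runs a circadian clock, in which Arntl (BMAL1) with Clock or Npas2 switches on Per, Cry, Dbp and other genes through E-box sites. With age, rodent brain is known for higher expression of microglial, complement and class II histocompatibility genes.

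The 16 libraries held between 14299369 and 22573153 counts, and 16609 of 55401 genes passed the filter on low counts. In the fit with sex as a covariate, 3527 genes (21.2% of those tested) were called at an adjusted p below 0.05 with edgeR's quasi-likelihood test. Of these, 1789 (10.8%) were higher in Con and 1738 (10.5%) lower in Con. Most differences were small: the median size among called genes was 0.32 on the log2 scale, 545 called genes passed 1.5-fold, and 83 were over 2-fold higher and 38 over 2-fold lower. The median over all genes tested was -0.0016. Markers of excitatory neurons summed to between 4645 and 5321 CPM (counts scaled to library size) in Con and between 4618 and 6049 CPM in T0, and none of them was at 0 in any library. Markers of striatum, the region beneath cortex, were also present and varied widely, with sums between 120 and 745 CPM in Con and between 151 and 986 CPM in T0. No cortex library went against its sex label, and no pair of cortex libraries was identical. T0 replicate 1 (F) often stood apart from the other T0 libraries, and without it 2502 genes were called, of which 2462 were among the 3527.

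Promoters of some activity-regulated and clock genes whose values are given below are shown first, since both groups of genes are known for such sites. Every promoter shown holds the marked site. Called genes without it are not shown and are counted after the sequences. Each is the stretch of 250 bases before the annotated start, on the strand of the gene, from RefSeq (GRCm38.p6). In the activity-regulated genes, capitals mark TGACG, the core of the cAMP response element, found on either strand. In Scg2 matches on both strands overlap and together spell the full element TGACGTCA. Scg2 belongs to the list of neuropeptides and not to that of activity-regulated genes counted below.
Fos, chr12:85473640-85473889, plus strand: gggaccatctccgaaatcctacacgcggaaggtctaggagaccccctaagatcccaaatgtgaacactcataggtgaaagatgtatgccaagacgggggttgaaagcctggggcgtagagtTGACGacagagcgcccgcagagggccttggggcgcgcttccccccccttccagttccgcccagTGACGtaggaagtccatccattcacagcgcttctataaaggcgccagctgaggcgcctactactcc
Fosb, chr7:19310046-19310295, minus strand: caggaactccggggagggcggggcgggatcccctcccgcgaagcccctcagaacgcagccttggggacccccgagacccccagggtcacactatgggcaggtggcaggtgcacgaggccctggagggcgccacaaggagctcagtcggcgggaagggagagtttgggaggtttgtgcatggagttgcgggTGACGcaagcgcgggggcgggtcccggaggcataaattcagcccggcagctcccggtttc
Homer1, chr13:93303507-93303756, plus strand, 1 of its 2 listed starts: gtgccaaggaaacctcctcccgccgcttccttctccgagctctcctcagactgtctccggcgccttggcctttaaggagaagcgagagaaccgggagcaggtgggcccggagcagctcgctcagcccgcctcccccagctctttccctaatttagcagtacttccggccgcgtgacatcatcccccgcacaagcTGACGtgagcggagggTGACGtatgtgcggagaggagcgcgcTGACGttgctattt
Scg2, chr1:79440027-79440276, minus strand: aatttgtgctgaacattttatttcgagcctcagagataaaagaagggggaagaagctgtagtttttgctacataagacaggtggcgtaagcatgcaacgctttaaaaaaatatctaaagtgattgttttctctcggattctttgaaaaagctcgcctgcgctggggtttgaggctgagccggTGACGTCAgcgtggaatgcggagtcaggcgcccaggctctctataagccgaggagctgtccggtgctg

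In the clock genes, capitals mark the E-box CACGTG, which reads the same on both strands and is bound by Arntl with Clock or Npas2.
Ciart, chr3:95882229-95882478, minus strand: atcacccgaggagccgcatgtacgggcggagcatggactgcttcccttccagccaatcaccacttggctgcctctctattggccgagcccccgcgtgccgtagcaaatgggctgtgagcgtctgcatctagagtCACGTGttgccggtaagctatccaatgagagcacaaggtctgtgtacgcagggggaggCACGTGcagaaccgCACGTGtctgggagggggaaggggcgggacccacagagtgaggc
Cry1, chr10:85185055-85185304, minus strand: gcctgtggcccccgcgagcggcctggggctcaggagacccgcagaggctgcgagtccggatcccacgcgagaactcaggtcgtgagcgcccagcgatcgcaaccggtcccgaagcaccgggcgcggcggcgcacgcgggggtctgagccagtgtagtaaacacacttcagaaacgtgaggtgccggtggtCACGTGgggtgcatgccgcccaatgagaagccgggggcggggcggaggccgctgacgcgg
Tef, chr15:81802423-81802672, plus strand, 1 of its 2 listed starts: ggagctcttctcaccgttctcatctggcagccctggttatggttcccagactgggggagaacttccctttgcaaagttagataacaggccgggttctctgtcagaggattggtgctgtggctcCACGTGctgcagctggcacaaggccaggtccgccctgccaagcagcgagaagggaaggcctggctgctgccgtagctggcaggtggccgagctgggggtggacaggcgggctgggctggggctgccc

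The TGACG core was present in 17.8% of all 32851 promoter windows listed and in 29.1% of the 12131 tested genes with a window. Of the 14 activity-regulated genes called lower in Con, 10 had a window and 6 of those held the core. The full element TGACGTCA occurred in 1.55% of windows, in 2.93% of tested genes with a window and in 0 of the same 10 genes. The E-box occurred in 6.02% of windows and in 9.5% of tested genes with one, in 4 of the 5 clock genes called higher in Con that had a window, and in 0 of 5 called lower in Con. These matches describe the letters in the windows and not binding.

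Activity-regulated genes were lower in Con cortex. Of 29 members tested, 14 were called lower in Con and 0 higher, against 10.5% and 10.8% of all genes, and the median log2 fold change of the list was -0.55. The counts of every list over both sexes, here and below, are to be read against these shares. The 3 smallest p-values of the whole comparison belonged to Nptx2, Egr3 and Homer1, which are members of this list.

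Nptx2 (chr5:144545902-144557478), a secreted pentraxin that clusters AMPA receptors at synapses, had the smallest p of all genes. Its lowest, median and highest values were 30.2, 34.9 and 50.96 CPM in Con, against 73.7, 87.5 and 101.9 CPM in T0. The groups did not overlap, and the log2 fold change was -1.26 ± 0.09 (SE; edgeR adjusted p = 7.9e-10). Egr3 (chr14:70077203-70082614), an activity-induced zinc finger factor, had 93.6, 113.7 and 148 CPM in Con, against 222, 277 and 328 CPM in T0 (log2 fold change -1.20 ± 0.10). Homer1 (chr13:93299635-93405129), a scaffold of the postsynaptic density with a short activity-induced form, had 110.6, 122.6 and 159 CPM in Con, against 212, 240 and 286 CPM in T0 (log2 fold change -0.94 ± 0.09). For both genes every Con library lay below every T0 library.

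The Fos family and the other Egr genes were lower in Con on average but overlapped between groups. Fosb, a partner in the AP-1 factor, had 10.8, 13.5 and 17.7 CPM in Con, against 17.5, 32.1 and 55.2 CPM in T0 (log2 fold change -1.31 ± 0.24, edgeR adjusted p = 0.0009). T0 replicate 1 was the lowest T0 library for Fosb, and the other 7 T0 libraries lay above all Con libraries. Egr2 had 1.69, 6.36 and 10.4 CPM in Con, against 5.65, 14.4 and 44.6 CPM in T0 (-1.66 ± 0.43), and again T0 replicate 1 was the lowest T0 library. Egr1 (-0.94 ± 0.17), Egr4 (-0.97 ± 0.18) and Fosl2 (-0.99 ± 0.18) were also called lower, as were Ier5, Dusp6, Gadd45b and Sik1 by between 0.52 and 0.71.

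Fos had 4.54, 23.7 and 29.6 CPM in Con, against 20.2, 36.4 and 95.4 CPM in T0 (-1.12 ± 0.38, edgeR adjusted p = 0.0426). Its call was lost without any 1 of 11 libraries (Con replicates 1, 3, 5, 6, 7 and 8, T0 replicates 2, 3, 4, 6 and 8), with adjusted p up to 0.108. Arc, which regulates AMPA receptor uptake, had 80.4, 233 and 315 CPM in Con and 159, 411 and 669 CPM in T0. It was not called (log2 fold change -0.90 ± 0.35, edgeR adjusted p = 0.0723). Without T0 replicate 1 it was called by edgeR (adjusted p = 0.0469). Npas4, a neuron-specific activity factor, had a log2 fold change of -0.70 ± 0.28 and an adjusted p of 0.078, and was called without Con replicate 1, Con replicate 2 or T0 replicate 5 (p between 0.0383 and 0.0498). Without T0 replicate 1, 17 members of the list were called lower.

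Several neuropeptides and secreted factors tied to neuronal activity were also lower in Con. Crh (chr3:19693401-19695396), the corticotropin-releasing hormone made in cortex by a set of interneurons, had 2.91, 3.20 and 3.82 CPM in Con, against 6.34, 7.48 and 10.5 CPM in T0 (log2 fold change -1.22 ± 0.13, edgeR adjusted p = 5.1e-07). Vgf (chr5:137026392-137033351), a neurotrophin-induced precursor of secreted peptides, had 237, 274 and 326 CPM in Con, against 359, 449 and 554 CPM in T0 (-0.69 ± 0.07). Inhba, the inhibin beta A subunit that forms activin, had 3.78, 6.77 and 9.80 CPM in Con, against 13.1, 18.6 and 25.8 CPM in T0 (-1.35 ± 0.17). In all 3 genes the groups did not overlap.

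Scg2, the granin secretogranin II, had 118.9, 148 and 171 CPM in Con, against 187, 205 and 254 CPM in T0 (-0.54 ± 0.08), also without overlap. Bdnf, the brain-derived neurotrophic factor, had 21.998, 26.6 and 31.7 CPM in Con, against 31.1, 39.3 and 49.8 CPM in T0 (-0.55 ± 0.09), with a narrow overlap. Of 19 neuropeptide genes tested, 5 were called lower in Con (Crh, Vgf, Scg2, Adcyap1 and Npy) and 1 higher (Trh, described with the markers of other regions), and the list's median was -0.0066. Of all genes tested 10.5% were called lower and 10.8% higher.

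**Figure D1:**
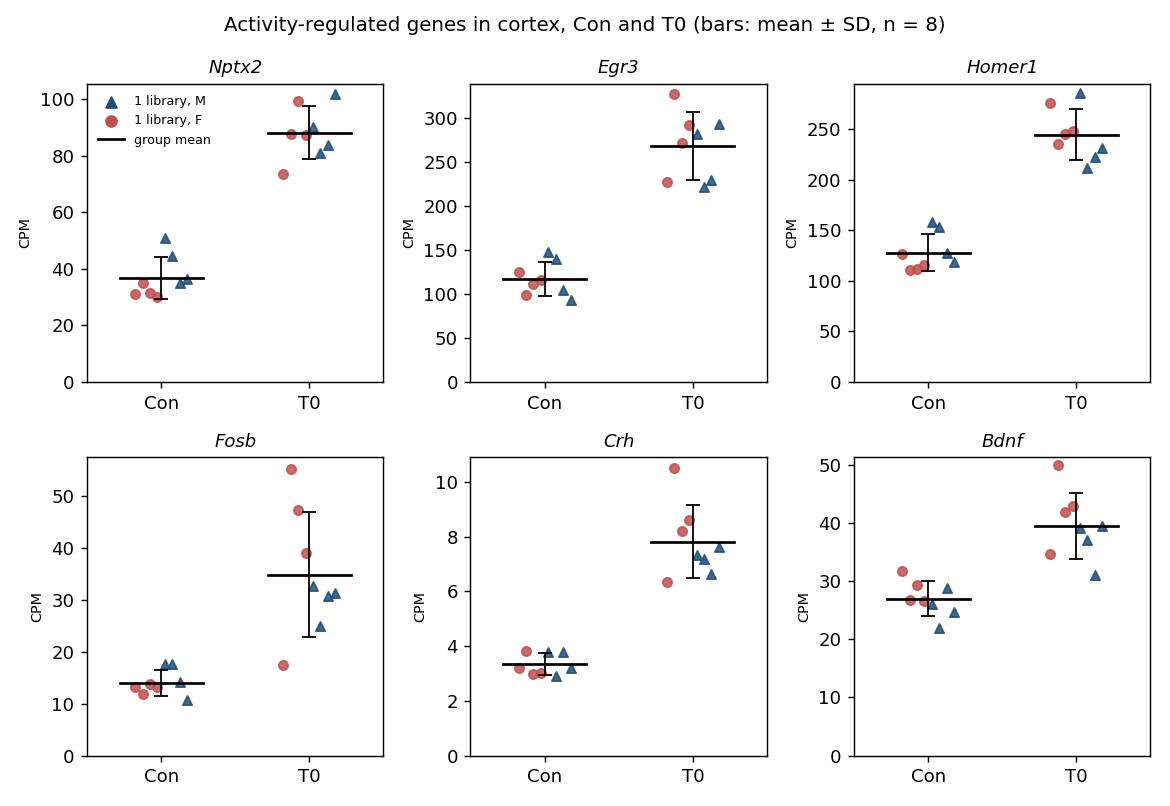
CPM in each cortex library for 6 genes tied to neuronal activity, Con left and T0 right, with triangles for M, circles for F and bars for mean ± SD (n = 8). Crh belongs to the list of neuropeptides and not to that of activity-regulated genes. Nptx2, Egr3, Homer1 and Crh did not overlap between groups, while Fosb and Bdnf overlapped in a few libraries.

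Several other genes were among the largest or firmest falls in Con. Cdkn1a (chr17:29090976-29100727), the cell cycle inhibitor p21, had 9.55, 11.6 and 17.4 CPM in Con, against 21.4, 28.3 and 33.1 CPM in T0 (log2 fold change -1.15 ± 0.14, edgeR adjusted p = 2.1e-05), without overlap. Fmnl1, a formin that assembles actin, had 140.8, 156 and 180 CPM in Con, against 214, 243 and 265 CPM in T0 (-0.59 ± 0.06), also without overlap. Col24a1, a fibrillar collagen, had 2.80, 6.91 and 9.30 CPM in Con, against 10.1, 15.1 and 19.4 CPM in T0 (-1.24 ± 0.20). Robo3, an axon guidance receptor, had 12.9, 31.5 and 37.8 CPM in Con, against 48.5, 56.5 and 100.1 CPM in T0 (-1.26 ± 0.24). Its T0 maximum was T0 replicate 1.

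The senescence list, which holds Cdkn1a, had 2 of 12 members called lower in Con (Cdkn1a and Gadd45a) and 1 higher (Phlda3, a p53 target). Gadd45a, a DNA damage and stress response gene, was lower in Con by -0.72 ± 0.13 log2 units. Glucocorticoid-responsive genes had 3 of 17 members called lower in Con (Cdkn1a, Klf9 and Arl4d) and 0 higher, with a median of 0.06. Klf9, a hormone-responsive Krüppel-like factor, fell by 0.26, while Fkbp5, a chaperone of the glucocorticoid receptor, had a log2 fold change of 0.06 ± 0.10 and was not called. In the integrated stress response list, 3 of 21 members were called higher in Con (Psat1, Phgdh and Atf5) and 1 lower (Slc7a1). Psat1, an enzyme of serine synthesis, had 108.6, 127.05 and 142.9 CPM in Con, against 84.1, 94.3 and 110.4 CPM in T0 (0.36 ± 0.07). Cholesterol synthesis genes had 3 of 24 members called lower in Con, among them Hsd17b7 (-0.34 ± 0.08) and Hmgcs1 (-0.15 ± 0.06), and 1 higher (Mvk, 0.36 ± 0.09). The counts of all these lists are to be read against all genes tested, of which 10.5% were called lower and 10.8% higher.

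Chaperones of the cytosol and of the endoplasmic reticulum were called lower in Con more often than higher. Of 20 heat shock genes, 8 were called lower and 1 higher, with a median of -0.13. Hsph1 (chr5:149614287-149636376), the large HSP110 chaperone that works with HSC70, had 218, 232 and 266 CPM in Con, against 306, 343 and 382 CPM in T0, without overlap (log2 fold change -0.54 ± 0.06, edgeR adjusted p = 1.8e-06). Hspa4, Hspa4l, Hspa8, Dnaja1, Chordc1 and Stip1 fell by between 0.16 and 0.28. Hspa1b was also called lower (-0.45 ± 0.15), but it has a near-identical neighbour, Hspa1a, which was not called (-0.13 ± 0.13), so reads may have been split between them. Hspe1, the mitochondrial HSP10, was the member called higher (0.45 ± 0.10).

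Of 20 endoplasmic reticulum chaperone genes, 8 were called lower in Con and 2 higher, with a median of -0.18. Hspa5 (BiP), the main chaperone of the compartment, had 158, 192 and 253 CPM in Con, against 217, 247 and 316 CPM in T0 (-0.36 ± 0.08). Hsp90b1 (GRP94) had 230, 248 and 324 CPM in Con, against 276, 315 and 401 CPM in T0 (-0.33 ± 0.07), and Sel1l, an adaptor of protein degradation there, fell by 0.35. The members called higher were Sec61b (0.40 ± 0.11), a subunit of the translocation channel, and Dnajb9 (0.20 ± 0.06). Dnajb5, a cochaperone outside these lists, had 119.5, 150 and 171 CPM in Con, against 170, 233 and 260 CPM in T0 (-0.64 ± 0.08). T0 replicate 1 was its lowest T0 library. The count of heat shock genes called lower dropped to 4 without Con replicate 6 or 7 and to 5 without Con replicate 8 or T0 replicates 6 or 8. That of the endoplasmic reticulum list dropped to 5 without Con replicate 7 or T0 replicate 6.

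Circadian clock genes differed in both directions. Of 21 members, 6 were called higher in Con (among them Tef, Cry1, Dbp and Ciart) and 5 lower (Arntl, Npas2, Nfil3, Clock and Nr1d1), and the median was -0.03. Arntl (chr7:113207465-113314126), the core activator, had 20.2, 23.9 and 27.0 CPM in Con, against 30.4, 36.6 and 44.3 CPM in T0, without overlap (log2 fold change -0.60 ± 0.08, edgeR adjusted p = 3.75e-05). Its partners Npas2 (-0.34 ± 0.07) and Clock (-0.28 ± 0.07) were lower too. Npas2 had 37.2, 42.1 and 48.4 CPM in Con, against 47.9, 52.5 and 64.8 CPM in T0.

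Clock outputs of the PAR bZIP family were higher in Con. Tef had 404, 416 and 439 CPM in Con, against 282, 341 and 369 CPM in T0, without overlap (0.33 ± 0.05). Dbp had 139.99, 166 and 208 CPM in Con, against 101.95, 128.7 and 168 CPM in T0 (0.37 ± 0.08). Among repressors of the clock, Cry1 had 16.9, 21.2 and 26.2 CPM in Con, against 14.8, 15.5 and 18.9 CPM in T0 (0.41 ± 0.08), and Ciart had 21.5, 26.3 and 31.8 CPM in Con, against 17.5, 19.7 and 23.6 CPM in T0 (0.40 ± 0.09). The groups overlapped for Dbp, Cry1 and Ciart.

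Nr1d1 (REV-ERBα), which represses Arntl, had 122.7, 135.6 and 162 CPM in Con, against 150, 160 and 181 CPM in T0 (-0.24 ± 0.06). Nfil3, a repressor at the sites where Dbp and Tef activate, had a log2 fold change of -0.57 ± 0.14. Per2 had 41.1, 48.97 and 61.2 CPM in Con and 37.3, 48.999 and 74.6 CPM in T0 and was not called (-0.03 ± 0.09), nor was Per3 (-0.01 ± 0.08). Per1, which also responds to neuronal activity, had a log2 fold change of -0.28 ± 0.13 and was not called (edgeR adjusted p = 0.131). Without T0 replicate 1 it was called by edgeR (adjusted p = 0.0274).

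Of the 4 genes listed as cold-responsive, 2 were called higher in Con. Cirbp, an RNA-binding protein induced by mild cold, had 56.3, 74.9 and 102.4 CPM in Con, against 56.01, 62.6 and 69.3 CPM in T0 (0.32 ± 0.09). Rbm3, its relative, had 64.4, 97.8 and 106.5 CPM in Con, against 56.1, 65.6 and 80.9 CPM in T0 (0.46 ± 0.13). With the trend of the differences on transcript length removed, as described further on, Rbm3 alone was called, and Cirbp was not (0.13, edgeR adjusted p = 0.244). Within M, every Con library lay above every T0 library for both genes (Cirbp at least 76.3 CPM in Con and at most 69.3 CPM in T0), while within F the groups overlapped. The M minus F difference was not called for either gene (adjusted p 0.112 for Cirbp and 0.521 for Rbm3).

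**Figure D2:**
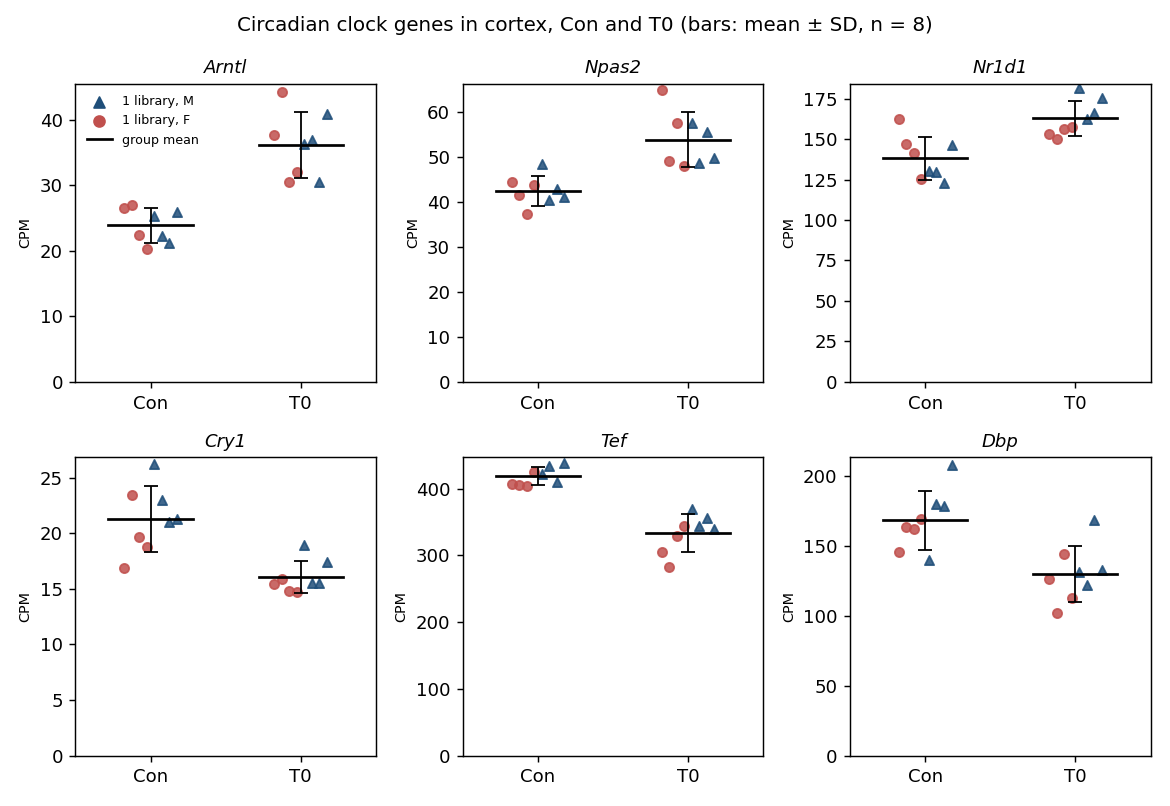
CPM in each cortex library for 6 circadian clock genes, Con left and T0 right, with triangles for M, circles for F and bars for mean ± SD (n = 8). Arntl, Npas2 and Nr1d1 were lower in Con, Cry1, Tef and Dbp higher, and only Arntl and Tef were free of overlap.

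Genes of cytosolic translation formed the most uniform group. Of 58 ribosomal protein genes, 56 were called higher in Con and 0 lower, and the median log2 fold change was 0.58. Rps14, of the small subunit, had 284, 347 and 415 CPM in Con, against 168, 208 and 262 CPM in T0 (0.74 ± 0.10, edgeR adjusted p = 3.3e-05). Rpl3 had 437, 503 and 564 CPM in Con, against 251, 339 and 390 CPM in T0 (0.57 ± 0.09). Rpl18 and Rpl7 were likewise free of overlap (0.58 ± 0.08 and 0.45 ± 0.07). The members not called were Rpl24 and Rps10, with means of 2.57 and 3.33 CPM in Con. Ribosomal protein genes have many near-identical pseudogenes, so that counting may split or drop their reads.

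Nuclear-encoded subunits of the respiratory chain were higher as well, with 37 of 48 called higher in Con, 0 lower and a median of 0.38. Cox4i1, of cytochrome oxidase, had 509, 672 and 849 CPM in Con, against 328, 438 and 540 CPM in T0 (0.63 ± 0.11). Ndufb9, of complex I, had 105.5, 139.8 and 158 CPM in Con, against 66.4, 91.3 and 112.1 CPM in T0 (0.60 ± 0.10), and Uqcrh, of complex III, had 114.1, 139.7 and 174 CPM in Con, against 89.7, 100.8 and 120 CPM in T0 (0.50 ± 0.09). All 3 overlapped between groups. Among the 13 genes encoded in mitochondrial DNA, mt-Nd3 was called higher (0.50 ± 0.13) and 0 were called lower. Mitochondrial transcripts made up 4.26% ± 0.61 of counts in Con and 3.58% ± 0.78 in T0 (SD, n = 8 each; exact permutation test within sex, two-sided p = 0.0771). In F alone (n = 4 each) the groups did not overlap, with 4.65% ± 0.53 in Con and 3.49% ± 0.62 in T0 (exact permutation test, two-sided p = 0.0286). In M alone (n = 4 each) they overlapped, with 3.87% ± 0.41 in Con and 3.67% ± 1.02 in T0 (exact permutation test, two-sided p = 0.686).

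Metallothionein and redox genes had 8 of 18 members called higher in Con and 0 lower, with a median of 0.26. Gpx4, the peroxidase that removes lipid peroxides, had 189, 227 and 261 CPM in Con, against 118.7, 148 and 195 CPM in T0 (0.60 ± 0.09). Prdx1, a peroxiredoxin, had 108.03, 127.5 and 140.7 CPM in Con, against 70.2, 93.2 and 101.4 CPM in T0, without overlap (0.47 ± 0.08). Mt3, the brain metallothionein, was higher by 0.54 ± 0.12, whereas Mt1 (0.35 ± 0.13, adjusted p = 0.0609) and Mt2 (0.24 ± 0.14) were not called.

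Transcript length moved with the direction of the differences. The median longest annotated transcript (GENCODE vM21) was 1921 bases among genes called higher in Con, 4764 bases among those called lower and 3246 bases among all genes tested. It was 1107 bases among ribosomal protein genes and 1186 bases among respiratory chain genes. Of 1100 genes with transcripts under 1 kilobase, 29.5% were called higher and 1.73% lower in Con. Of 912 genes with transcripts of 8 kilobases or more, 1.86% were called higher and 22.5% lower. The median log2 fold change fell with length within M and within F alike, as the plot by transcript length shows.

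With the trend on length removed in each library, an alternative added after the data had been seen, 2600 genes were called, of which 2065 were among the 3527. Ribosomal protein genes then had 54 members called higher and 1 lower with a median of 0.37, and respiratory chain genes had 24 called higher. Activity-regulated genes had 15 called lower. The part of RNA quality or of library making in the trend was not tested.

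**Figure D3:**
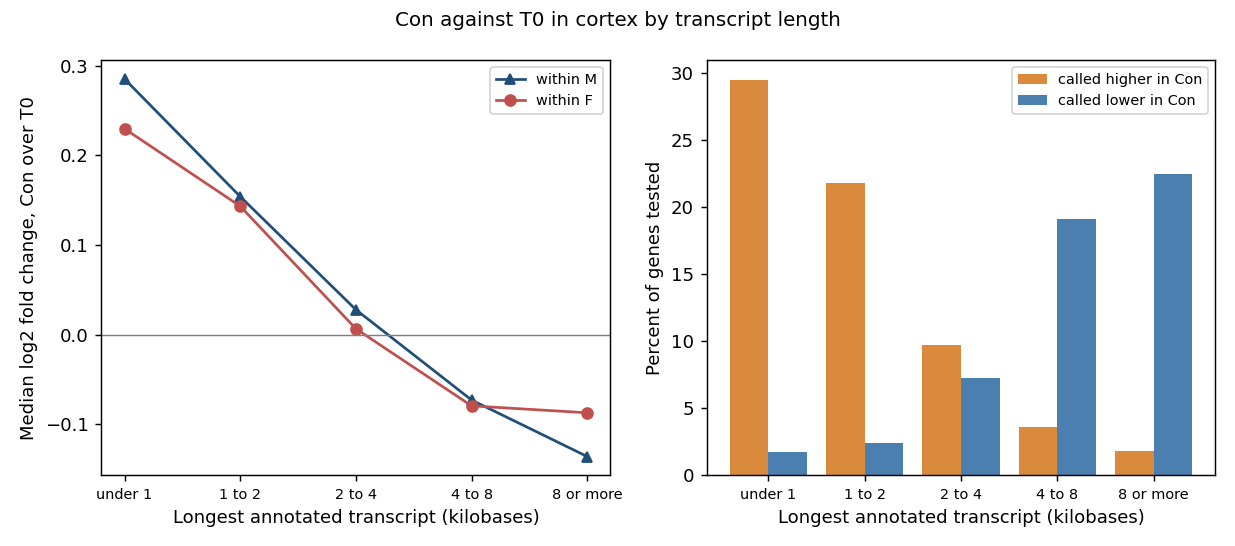
Median log2 fold change of Con over T0 within M and within F (left), and percent of genes called higher or lower in Con (right), by length of the longest annotated transcript in kilobases. Short transcripts were more often called higher in Con (29.5% under 1 kilobase) and long ones more often lower (22.5% at 8 kilobases or more).

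Microglial markers were higher in Con where they were called. Of 22 microglial markers, 7 were called higher in Con and 0 lower, against 10.8% and 10.5% of all genes, with a median of 0.24. Siglech, a microglial lectin, had 12.9, 15.8 and 16.7 CPM in Con, against 9.57, 11.2 and 12.7 CPM in T0, without overlap (0.43 ± 0.09). Ly86, a partner of the receptor RP105, had 6.38, 8.30 and 10.0 CPM in Con, against 4.57, 5.26 and 5.91 CPM in T0, also without overlap (0.68 ± 0.17). Tyrobp and Trem2, a signalling pair of microglia, were higher by 0.67 ± 0.14 and 0.41 ± 0.13, while the homeostatic markers Cx3cr1 (0.09 ± 0.10) and Tmem119 (0.20 ± 0.08) were not called. In bulk tissue, more cells of a type and more RNA per cell cannot be told apart.

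Genes of activated microglia had 8 of 15 members called higher in Con and 0 lower, with a median of 0.42. Cd63, a lysosomal and exosomal tetraspanin, had 46.2, 59.3 and 69.9 CPM in Con, against 25.8, 39.8 and 45.5 CPM in T0, without overlap (0.57 ± 0.10). Apoe, the lipid carrier made by astrocytes and activated microglia, had 1709, 2087 and 2318 CPM in Con, against 1072, 1608 and 1824 CPM in T0 (0.42 ± 0.09). C4b (chr17:34728380-34743882), of the complement cascade, had 36.6, 42.7 and 50.9 CPM in Con, against 13.5, 23.1 and 31.4 CPM in T0, without overlap (0.83 ± 0.22, edgeR adjusted p = 0.0116). Complement and acute-phase genes had 3 of 13 members called higher (C4b, Il33 and A2m). Il33, an alarmin made in brain by glia, had 49.3, 53.1 and 79.1 CPM in Con, against 33.5, 40.4 and 48.7 CPM in T0, without overlap (0.55 ± 0.12).

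Antigen presentation genes had 6 of 19 members called higher in Con and 0 lower, with a median of 0.26. H2-Aa (chr17:34282744-34287823), a chain of class II molecules, had 1.13, 1.72 and 2.53 CPM in Con, against 0.272, 0.568 and 0.804 CPM in T0, without overlap (1.72 ± 0.32, edgeR adjusted p = 0.00051). H2-Eb1 (1.04 ± 0.34), H2-DMb1 (1.04 ± 0.27) and the invariant chain Cd74 (0.88 ± 0.29) were also called. H2-Q6 and H2-Q7, near-identical class I genes between which reads may be split, were higher by 1.24 ± 0.41 and 1.56 ± 0.41. The classical class I genes H2-K1 (0.43 ± 0.18) and H2-D1 (0.18 ± 0.21) and B2m (0.19 ± 0.14) were not called. The list's count dropped to 3 with the length trend removed, with no filter on low counts and with the nuclear share of the counts, described further on, as a covariate.

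Interferon-stimulated genes had 3 of 32 members called higher in Con (Ifit3b, Ifit3 and Ifi27) and 0 lower, below the 10.8% of all genes, with a median of 0.13. Ifit3 and Ifit3b, near-identical copies that block viral RNA, were higher by 0.69 ± 0.15 and 0.66 ± 0.14. Among 7 markers of macrophages at the brain's borders, Pf4 was called higher (0.95 ± 0.33). Of 6 lymphocyte genes edgeR called 0 (1 at an unadjusted p below 0.05), and of the 1 neutrophil gene tested it called 0 (0 unadjusted).

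Counts of glial calls depended on single libraries and on the fit. With the nuclear share of the counts as a covariate, 3 activated microglia genes and 3 astrocyte genes were called higher, with medians of 0.38 and 0.07, and limma voom and the fit with no filter on low counts each called 5 activated microglia genes higher. Astrocyte genes called higher dropped to 5 without T0 replicate 2. Activated microglia genes called higher dropped to 4 without Con replicate 3, Con replicate 5 or T0 replicates 1, 2 or 3, and to 5 without T0 replicate 4 or 6. Microglial genes called higher dropped to 4 without T0 replicate 1 or 2.

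Astrocyte markers had 9 of 20 members called higher in Con and 0 lower, with a median of 0.16, and all 20 had a positive log2 fold change. S100b, a calcium-binding protein of astrocytes, had 132.4, 157 and 185 CPM in Con, against 85.2, 112.01 and 150 CPM in T0 (0.47 ± 0.09). Aldoc, the brain aldolase, had 852, 983 and 1225 CPM in Con, against 617, 767 and 927 CPM in T0 (0.36 ± 0.08). Gfap, the filament of reactive astrocytes, had 240, 293 and 408 CPM in Con, against 78.2, 226 and 272 CPM in T0 (0.58 ± 0.20, edgeR adjusted p = 0.0398). Its call was lost without any 1 of 7 libraries (Con replicates 1, 3, 5 and 7, T0 replicates 2, 3 and 5), with adjusted p up to 0.0774. The defining markers Aqp4 (0.09 ± 0.14), Aldh1l1 (0.05 ± 0.07) and Gja1 (0.13 ± 0.09) were not called. Without T0 replicate 2, 5 astrocyte markers were called.

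Myelin genes had 2 of 22 members called higher in Con (Qdpr and Aspa) and 0 lower, with a median of 0.10. Among all genes tested 10.8% were called higher and 10.5% lower. Mbp, the main myelin basic protein, had 1569, 1907 and 2538 CPM in Con and 1369, 1666 and 1870 CPM in T0, and was not called (0.30 ± 0.13, edgeR adjusted p = 0.0905). Of 12 genes of newly formed oligodendrocytes, 1 was called, the antisense RNA 9630013A20Rik (-0.80 ± 0.27), and of 13 genes of their precursors edgeR called 0 (1 at an unadjusted p below 0.05). For antisense RNAs, the reads of both strands may be mixed, since no source used here states the strand setting. Of 20 vascular genes edgeR called 0 (4 at an unadjusted p below 0.05), with a median of -0.13.

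Collagen IV, the main collagen of vessel basement membranes, was lower in Con. Col4a1 had 26.6, 40.0 and 45.3 CPM in Con, against 51.2, 61.6 and 69.7 CPM in T0, and Col4a2 had 33.7, 60.9 and 71.4 CPM in Con, against 75.9, 87.97 and 114.6 CPM in T0 (-0.65 ± 0.12 and -0.71 ± 0.14). Neither gene overlapped between groups. In the list of meningeal and collagen genes, 3 of 20 members were called lower in Con (Col4a1, Col4a2 and Col5a1) and 3 higher (Dcn, Sparc and Igfbp2). The shares of all genes were 10.5% lower and 10.8% higher. Dcn, the proteoglycan decorin of meningeal fibroblasts, had 11.1, 21.1 and 39.7 CPM in Con, against 5.95, 8.30 and 19.7 CPM in T0 (1.10 ± 0.27). Of 14 genes of the neuronal matrix and perineuronal nets, 2 were called lower, Tnr (-0.36 ± 0.09) and Ncan (-0.20 ± 0.06).

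Genes of ion channels, synaptic vesicles and transmitter receptors were called lower in Con more often than higher, by small amounts. Of 25 ion channel genes, 9 were called lower and 0 higher, against 10.5% and 10.8% of all genes, with a median of -0.21. Cacna1a, the pore of P/Q-type calcium channels that trigger transmitter release, had 128.9, 158 and 174 CPM in Con, against 190, 213 and 245 CPM in T0, without overlap (-0.44 ± 0.07). The potassium channel genes Kcnq5 and Kcna1 fell by 0.36 and 0.48.

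Of 22 synaptic vesicle genes, 5 were called lower in Con and 0 higher, with a median of -0.12. Unc13a, which primes vesicles for release, had 321, 367.03 and 422 CPM in Con, against 481, 518 and 620 CPM in T0, without overlap (-0.51 ± 0.07, edgeR adjusted p = 3.3e-05). Syn1, a vesicle phosphoprotein, and Syt1, the calcium sensor of release, fell by 0.21 and 0.23. Glutamate receptor genes had 8 of 22 members called lower and 0 higher, with a median of -0.17, among them the AMPA receptor subunits Gria2 (-0.24 ± 0.06) and Gria3 (-0.31 ± 0.07) and the NMDA receptor subunits Grin1 (-0.28 ± 0.08) and Grin2a (-0.38 ± 0.13). GABA receptor genes had 6 of 14 members called lower and 1 higher. Gabbr1, a subunit of the metabotropic GABA-B receptor, had 722, 761 and 787 CPM in Con, against 821, 853 and 869 CPM in T0, without overlap (-0.16 ± 0.04). Gabrg1, a subunit also found in glia, was the member called higher (0.52 ± 0.12).

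The longest transcripts of the ion channel genes had a median of 8209 bases, against 3246 bases over all genes tested. With the length trend removed, 4 ion channel, 3 glutamate receptor, 3 synaptic vesicle and 2 GABA receptor genes were called lower. Without Con replicate 5 or T0 replicate 1, 5 glutamate receptor genes were called lower.

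Of 24 markers of excitatory neurons, 5 were called lower in Con and 1 higher, against 10.5% and 10.8% of all genes. The median was -0.09. Lamp5, a marker of upper layers and of some interneurons, had 94.3, 164 and 188 CPM in Con, against 190, 227 and 278 CPM in T0, without overlap (-0.60 ± 0.16). Tbr1, a factor of deep-layer neurons, and Cux2, of upper layers, fell by 0.38 and 0.29. The general markers Slc17a7 (-0.10 ± 0.06) and Camk2a (0.02 ± 0.08) were not called. Crym was the member called higher (0.65 ± 0.20). Of 18 interneuron genes, 2 were called higher (Sncg and Calb2) and 1 lower (Kcnc1), and Gad1 (-0.13 ± 0.07), Pvalb (0.17 ± 0.14) and Sst (0.18 ± 0.09) were not called.

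Among the largest rises in Con were genes of other structures. Among called genes of mean log2 CPM 1 or more whose sign was the same in M and F, the 10 largest rises were Folr1, Aqp1, Dlk1, Sostdc1, Ecrg4, Drc7, Sfrp5, Fmo2, Trhr and Stpg1. Choroid plexus genes, of the epithelium that secretes cerebrospinal fluid, had 6 of 14 members called higher in Con and 0 lower, with a median of 1.90 and a sum between 317 and 1691 CPM in Con and between 200 and 1052 CPM in T0. Ttr, transthyretin, the most abundant of them, had 96.9, 627 and 1138 CPM in Con and 1.64, 65.2 and 576 CPM in T0. The groups overlapped widely, and it was not called (1.94 ± 1.04, edgeR adjusted p = 0.193). Folr1, a folate receptor of this epithelium, had 0.781, 5.96 and 12.1 CPM in Con, against 0.149, 0.847 and 4.04 CPM in T0 (2.06 ± 0.69, edgeR adjusted p = 0.0386). Aqp1, a water channel, had 1.24, 4.49 and 9.40 CPM in Con, against 0.0991, 0.588 and 3.60 CPM in T0 (1.99 ± 0.65). These calls were fragile: the list's count dropped to 1 without Con replicate 3 or 7 or T0 replicate 5, to 2 without Con replicate 6 or T0 replicates 1, 3, 4 or 8, and to 3 without Con replicate 4 or T0 replicate 7. It was 1 with no filter on low counts and 3 with the length trend removed or with the nuclear share as a covariate. The part of dissection in these values was not tested, and markers of striatum and hippocampus varied over wide ranges in both groups as well.

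Stpg1, Fmo2 and Sfrp5 each kept their call in all 25 alternatives run. Stpg1 (chr4:135494790-135537803), a sperm-tail repeat gene, had 2.83, 4.41 and 6.19 CPM in Con, against 0.991, 1.80 and 2.21 CPM in T0, without overlap (1.36 ± 0.18, edgeR adjusted p = 2.5e-05). Fmo2, a flavin monooxygenase, had 2.47, 4.23 and 5.16 CPM in Con, against 0.694, 1.43 and 2.60 CPM in T0 (1.42 ± 0.30). Among markers of other regions, edgeR called 0 of 16 for striatum (also 0 at an unadjusted p below 0.05). It called 1 of 12 for hippocampus (Zbtb20, 0.42 ± 0.14) and 2 of 8 for thalamus and olfactory regions (Trh and Calb2), all higher in Con. These counts and those below are to be read against all genes tested, of which 10.8% were called higher and 10.5% lower. Trh, the thyrotropin-releasing hormone, had 0.391, 3.25 and 9.95 CPM in Con, against 0.341, 0.795 and 2.01 CPM in T0. Its call was lost without Con replicates 2, 3 or 7 or T0 replicates 1, 2 or 4 (adjusted p up to 0.0746). Drd1, a striatal dopamine receptor, had 7.42, 29.9 and 40.2 CPM in Con and 7.73, 28.6 and 49.6 CPM in T0 and was not called. Genes of dividing and newborn cells had 0 of 13 members called by edgeR (3 at an unadjusted p below 0.05), histones had 1 of 8 (H2ac6, higher in Con) and blood genes had 1 of 6 (Bpgm, higher in Con).

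**Figure D4:**
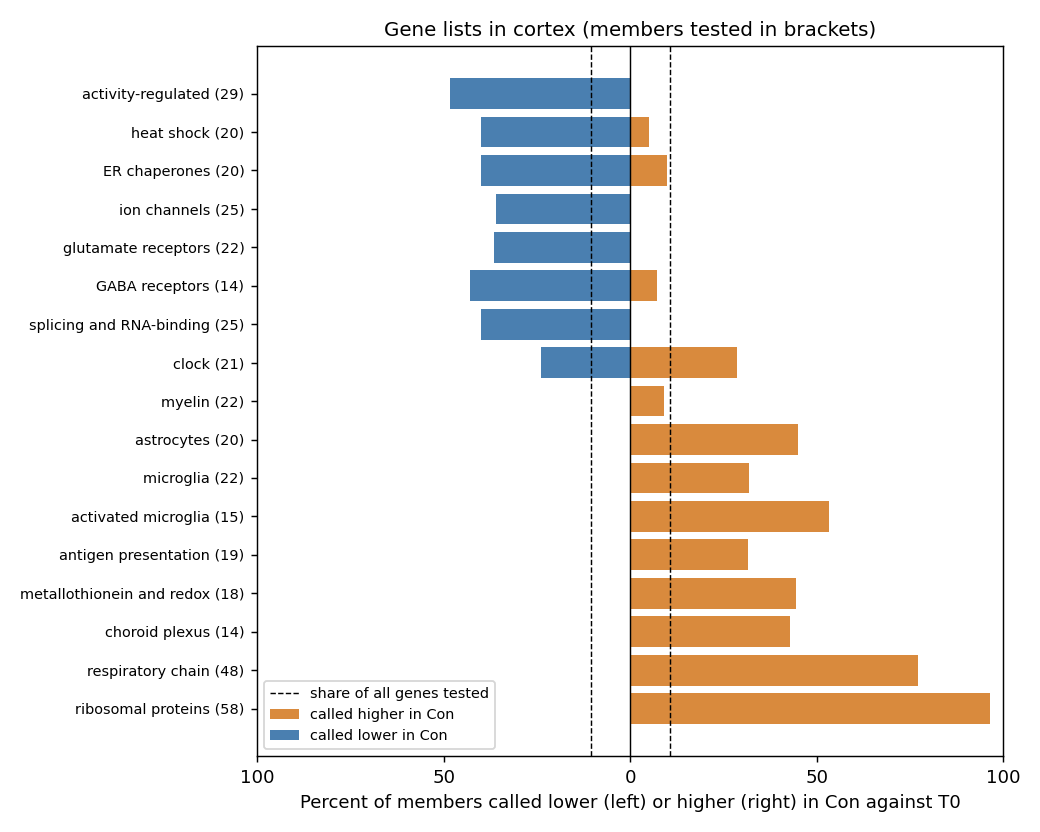
Percent of the tested members of 17 gene lists called lower (bars to the left) or higher (bars to the right) in Con against T0, with the number of members tested in brackets and dashed lines at the shares of all genes tested (10.5% lower, 10.8% higher). Activity-regulated genes and chaperones lie to the left, ribosomal protein and respiratory chain genes furthest to the right.

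Fitted within each sex, the comparison gave fewer calls in M than in F. Within M, 437 genes (2.63%) were called, 186 (1.12%) higher in Con and 251 (1.51%) lower. Within F, 3984 genes (24%) were called, 1871 (11.3%) higher in Con and 2113 (12.7%) lower. In both fits 229 genes were called, 221 of them with the same sign. Of the 3527 genes called over both sexes, 3465 had the same sign in M and in F, and 2680 had the larger size in F. Library numbers ran from 98 upward in Con F and from 55 to 91 in T0 F, with no overlap, whereas those of Con M and T0 M alternated. Within F, library order therefore cannot be told apart from the group, and the M minus F difference rests on the same F libraries.

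The count in M depended on the tool and on single libraries. DESeq2 called 1047 genes within M (6.3%), limma voom 2248 (13.5%), and the M libraries alone, with the set of 12 library numbers as a replicate block, gave 2707 (16.3%). As a percent of the 16609 genes tested, the edgeR count was 6.76% without Con replicate 2, 0.421% without Con replicate 4, 0.247% without Con replicate 6 and 0.187% without Con replicate 8. It was 0.355%, 0.801%, 4.07% and 0.241% without T0 replicates 5, 6, 7 and 8. In F the count lay between 2672 and 4293 when any 1 library was left out.

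Activity-regulated genes were lower in Con in each sex. Their median was -0.53 within M, where 6 members were called lower (1.51% of all genes), and -0.66 within F, where 14 were (12.7% of all genes). Nptx2 was lower by 1.10 within M and 1.45 within F, Egr3 by 1.08 and 1.31, and Hsph1 by 0.62 and 0.47, with adjusted p below 0.05 in each sex and none called in the M minus F difference. Arntl was lower by 0.61 within M and 0.58 within F. Heat shock genes had 5 members called lower within M and 3 within F.

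Other lists had more members called within F than within M, as had all genes tested, of which 1.12% were called higher within M and 11.3% within F. Ribosomal protein genes had 11 members called higher within M and 55 within F, with medians of 0.48 and 0.68, and 0 differed between the sexes. Respiratory chain genes had 4 called higher within M and 31 within F, with medians of 0.30 and 0.43. Astrocyte markers had 0 called within M and 14 called higher within F, with medians of 0.04 and 0.34, and 1 member differed between the sexes. Slc1a3, an astrocyte glutamate transporter, was that member, at -0.05 within M and 0.55 within F (adjusted p of the difference 0.0070). Of the microglial markers, 0 were called within M and 9 within F, and Gpr34, a receptor of microglia, differed between the sexes (-0.09 within M, 1.00 within F, adjusted p 0.012).

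The M minus F difference of the log2 fold changes was called for 542 genes (3.26%), 416 (2.50%) of them positive and the rest (0.759%) negative. The 6 smallest p-values belonged to Clasrp, Arhgef1, Maml3, Tarbp2, Apbb3 and Zfp931. Clasrp, a splicing regulator, had 99.9, 107.99, 123.8 and 119.3 CPM in Con M, against 98.5, 99.5, 105.5 and 93.6 CPM in T0 M. In F it had 75.1, 60.7, 68.6 and 69.5 CPM in Con, against 130.1, 119.1, 107.6 and 110.5 CPM in T0. The groups overlapped in M and were far apart in F, and the difference of log2 fold changes was 0.95 (edgeR adjusted p = 0.00031). Maml3, a coactivator of Notch, had 9.20, 7.69, 7.16 and 9.09 CPM in Con F, against 26.3, 21.6, 19.99 and 15.2 CPM in T0 F, and 15.0, 11.4, 11.1 and 9.70 CPM in Con M, against 11.1, 12.6, 9.25 and 11.7 CPM in T0 M.

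RNAs kept in the nucleus and splicing genes differed between the sexes in the same way. Malat1 (chr19:5795690-5802672), a long noncoding RNA of nuclear speckles, had 1315, 1543, 1767 and 1318 CPM in Con M, against 894, 1276, 1186 and 909 CPM in T0 M. In F it had 610, 289, 501 and 708 CPM in Con, against 984, 894, 1454 and 983 CPM in T0. The difference of log2 fold changes was 1.51 (edgeR adjusted p = 0.0143), with 0.48 within M and -1.03 within F. Meg3 (chr12:109541001-109571726), an imprinted noncoding RNA, differed by 1.04, with 0.18 within M and -0.86 within F, and Snhg11 by 1.05, with 0.02 within M and -1.03 within F. Neat1, the scaffold of paraspeckles, was not called (0.25 within M, -0.26 within F).

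Of 25 splicing and RNA-binding protein genes, 10 were called lower in Con over both sexes, 0 within M and 21 within F. Over both sexes 6 were called lower by limma voom and with the nuclear share as a covariate, and 5 with the length trend removed. For 9 of the 25, Srsf2, Srsf5, Srsf11, Clk4 and Luc7l3 included, the M minus F difference was called. Hnrnpu, a nuclear matrix protein, was lower in Con over both sexes without overlap, with 340, 417 and 439 CPM in Con, against 472, 498 and 634 CPM in T0 (-0.39 ± 0.07). In the list of nuclear noncoding RNAs, 3 of 9 members were called lower in Con over both sexes (Miat, Mirg and Snhg11). Snhg11 lost its call without Con replicates 3, 5 or 7 or any 1 of T0 replicates 1, 2, 3, 4 and 5, with adjusted p up to 0.0889.

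Malat1, Neat1 and Meg3 together give a nuclear share of the counts of each library. It was 0.613% ± 0.046 in Con M and 0.513% ± 0.045 in T0 M, and 0.311% ± 0.096 in Con F and 0.568% ± 0.036 in T0 F (SD, n = 4 each). Con was higher in M and lower in F, and in each sex the groups did not overlap (exact permutation test, two-sided p = 0.0286, the smallest that 4 against 4 allows). Over both sexes the share was 0.462% ± 0.176 in Con and 0.540% ± 0.048 in T0 (SD, n = 8 each; exact permutation test within sex, p = 0.200).

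With this share as a covariate in the fit, 2867 genes were called over both sexes, 275 within M, 0.801% of genes within F and 0 for the M minus F difference. Since the share did not overlap between Con and T0 in either sex, and differed in opposite directions, it cannot be told apart from the group within M, within F or in the M minus F difference. The count for the M minus F difference also rested on single libraries: it was 259, 231, 214 and 357 without Con replicates 3, 5, 6 and 8, and 314, 320, 310 and 293 without T0 replicates 1, 3, 5 and 8.

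**Figure D5:**
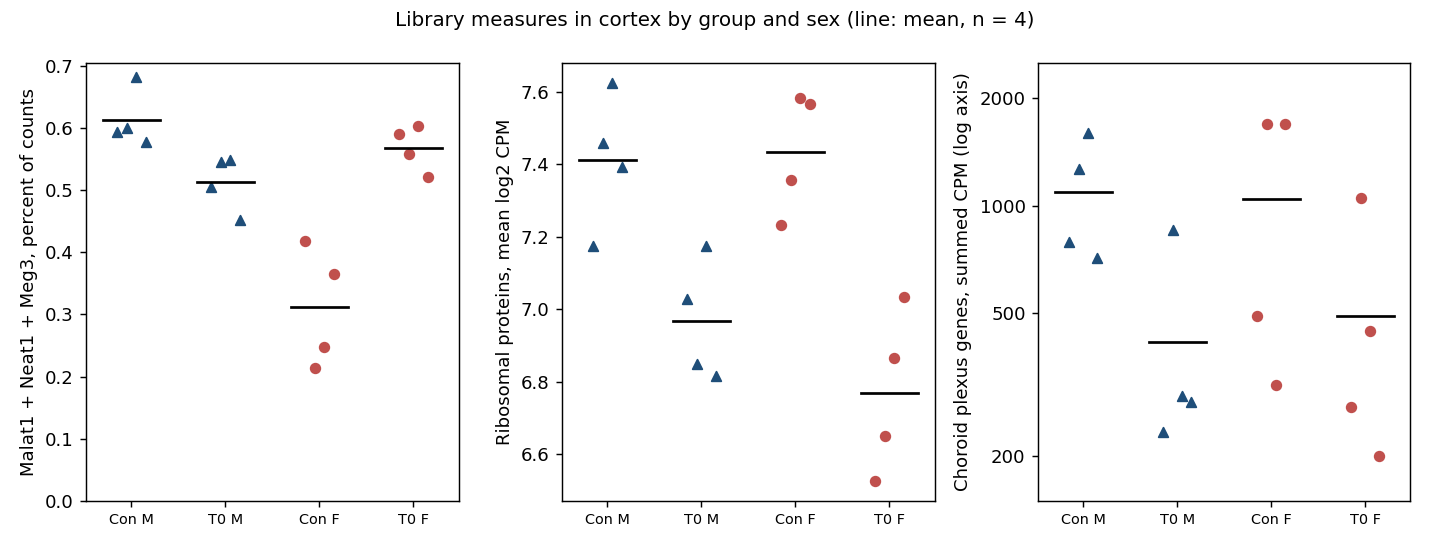
Nuclear share, the percent of counts from 3 RNAs, Malat1, Neat1 and Meg3 (left), mean log2 CPM of ribosomal protein genes (middle) and summed CPM of choroid plexus genes on a log axis (right) in each library, by group and sex, with lines at the mean (n = 4). The nuclear share is higher in Con than in T0 within M and lower within F, ribosomal protein levels are higher in Con in both sexes, and choroid plexus sums spread widely in every group.

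Kidney, liver and white adipose tissue (WAT) of the same groups were fitted together with cortex to test which differences were larger or smaller in cortex than in the mean of the others. The sex labels of 2 kidney T0 libraries differ from those of the same animal numbers in the other tissues. The fit used the labels as given. Where the animal was a block, these 2 libraries were given an animal of their own. Of 20888 genes tested over all 95 libraries, 20 (0.0957%) were called, 8 (0.0383%) with a higher log2 fold change in cortex and 12 (0.0574%) with a lower one. This fit shares 1 estimate of the spread among 4 tissues, and 1498 genes passed an unadjusted p below 0.05. For Con against T0 in cortex alone it called 23 genes (0.11%), against 3527 in the fit of cortex by itself. In simulated data at these depths, genes above a floor of CPM in cortex were changed in cortex alone. The joint fit recovered 26% of those changed 1.5-fold and 70% of those changed 2-fold. Recovery of genes rarer in cortex was not tested.

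Activity-regulated genes were among the 12. Egr3 differed by -2.39 ± 0.56 (edgeR adjusted p = 0.0467), Homer1 by -0.88 ± 0.20, and Fosb by -2.40 ± 0.52. Homer1 had a median of 122.2 CPM in Con and 242 CPM in T0 in cortex, against 10.7 and 11.2 CPM in kidney, 8.34 and 11.2 CPM in liver, and 7.42 and 9.34 CPM in WAT (Con and T0 in each case). The CPM compared between tissues were scaled to each library's total counts alone. Outside cortex Egr3 and Fosb were rare, with medians up to 3.25 CPM. Inhba (-1.75 ± 0.39) and Dnajb5 (-0.65 ± 0.14) were called as well. The groups of Dnajb5 had a log2 fold change of -0.64 in cortex, against 0.11 (kidney), 0.03 (liver) and -0.11 (WAT).

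The clock genes Nr1d1 and Nfil3 were called too. Nr1d1 had medians of 136.1 CPM in Con and 159 CPM in T0 in cortex, 52.2 and 99.2 CPM in kidney, 15.8 and 90.2 CPM in liver, and 133.8 and 278 CPM in WAT. Its log2 fold change was lower than 0 in every tissue and smaller in size in cortex than in the mean of the others (difference 1.35 ± 0.27, edgeR adjusted p = 0.0201). Nfil3 had medians of 9.28 CPM in Con and 12.5 CPM in T0 in cortex, and of 16.3 and 7.91 CPM in kidney and 14.2 and 6.59 CPM in WAT (difference -1.43 ± 0.29).

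Alb, Ighg2c and 2310022B05Rik were also among the smallest p-values. Alb (albumin), low in cortex, had medians of 0.0672 CPM in Con and 0.261 CPM in T0 in cortex, with 1 T0 library at 19.1 CPM (difference -4.55 ± 0.86). Ighg2c, an immunoglobulin heavy chain gene, had medians of 4.59 CPM in Con and 4.64 CPM in T0 in cortex, and of 4.79 and 0.053 CPM in WAT (difference -4.79 ± 0.94). 2310022B05Rik had medians of 96.9 CPM in Con and 75.5 CPM in T0 in cortex, 10.9 and 16.8 CPM in liver (difference 0.80 ± 0.15). No ribosomal protein gene and no respiratory chain gene was called in this difference. However, for Con against T0 in cortex alone this fit also called 0 of 58 ribosomal protein genes and 0 of 48 respiratory chain genes. The missing calls therefore cannot tell whether these rises were shared with other tissues.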

How the data were processed

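Raw counts per gene were deposited by the authors for 95 bulk RNA-seq libraries. Per the submitters' processing notes, reads were aligned with STAR 2.7.10 to mm10, and DESeq2 was named without its role. The label of the table calls it corrected, with no account of what was corrected. The strand setting and the annotation of the counting are not given in the sources used here.

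The 24 cortex libraries (8 Con, 8 T0, 8 TLS) were fitted with edgeR 4.0.16 (R 4.3.3) on the deposited counts: filterByExpr with a minimum count of 10, TMM scaling and the robust quasi-likelihood test, with a mean per treatment and a term for sex. A second fit had a mean per treatment and sex, and another joined all 95 libraries. Genes with a Benjamini-Hochberg adjusted p below 0.05 are called, and log2 fold changes are Con over T0. SE is the size of the log2 fold change over the root of F. CPM are TMM-scaled. Depth was 14299369 to 22573153 counts per library and the common biological coefficient of variation 0.144. Nothing says more of the animals than that each library has its own, so p-values measure the spread between these libraries. The fits were tested on simulated counts.

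The gene lists and members were chosen with earlier results of these data known. Named genes were, among called genes of mean log2 CPM 1 or more whose sign was the same in both sexes, the 10 largest rises and falls and the 6 smallest p, the 6 smallest p of each difference test, up to 4 genes per list, and a fixed set looked up in any case. Alternatives used limma 3.58.1 and DESeq2 1.42.0. Con and T0 are different animals, so no cortex libraries are paired. Tissues of 1 animal are, and their median correlation of deviations lay between -0.002 and 0.048. A few genes that the rule names are not reported here.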

Additional observations from a re-analysis of the deposited data

Results flagged for a closer look

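Of 268 groups of 8 libraries checked, 14 had a highest or lowest library far from the rest, about what chance gives (1 in 20 groups), and 5 of these were T0 replicate 1 (F). That library was highest for Inhba (25.8 CPM, next 18.9), Robo3 (100.1 CPM, next 67.004) and Col4a2 (114.6 CPM, next 93.4) and lowest for Cd63 (25.8 CPM, next 36.6) and Dnajb5 (169.6 CPM, next 225). Con replicate 3 (F) was highest for Hsp90b1 (324 CPM, next 272) and Dnajb11 (56.3 CPM, next 49.9). Con replicate 5 (F) was lowest for Col4a1 (26.6 CPM, next 37.0) and highest for Sfrp5 (6.71 CPM, next 3.59). Sostdc1 was highest in Con replicate 7 (F) at 10.8 CPM (next 5.94) and, within T0, in T0 replicate 2 (F) at 4.83 CPM (next 2.33). Con replicate 2 (M) was highest for Ighg2c (7.41 CPM, next 5.02), T0 replicate 7 (M) lowest for Gabbr2 (303 CPM, next 389.7) and T0 replicate 5 (M) highest for Cux2 (172 CPM, next 149).

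The log2 fold change of Con over T0 differed between M and F, by edgeR's test of the difference (M minus F), for 11 of the named genes. It was positive for Clasrp (0.95), Arhgef1 (0.81), Maml3 (1.41), Tarbp2 (0.87), Apbb3 (0.70), Malat1 (1.51), Meg3 (1.04), Snhg11 (1.05) and Gm37795 (1.98), and negative for Zfp931 (-1.39) and Gabrg1 (-0.74). Adjusted p-values lay between 0.00031 and 0.0383.

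The log2 fold change in cortex differed from the mean of kidney, liver and WAT for 10 of the named genes. It was lower in cortex for Egr3 (-2.39), Homer1 (-0.88), Inhba (-1.75), Fosb (-2.40), Nfil3 (-1.43), Dnajb5 (-0.65), Alb (-4.55) and Ighg2c (-4.79), and higher for Nr1d1 (1.35) and 2310022B05Rik (0.80). Adjusted p-values lay between 0.0154 and 0.0467. Egr3 and Fosb were rare outside cortex, as given above.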

How the results depend on the processing

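Over both sexes, between 2502 and 3858 genes were called under the other tools, filters, scalings and covariates and with any 1 library left out. Those called and over 1.5-fold were 3.28% of the 16609 genes tested. Within M the share called was 6.3% with DESeq2, 13.5% with limma voom, 1.66% with the nuclear share as a covariate, 1.24% with the length trend removed and between 0.187% and 6.76% with 1 library left out. Within F it was 0.801% with the nuclear share as a covariate. For the M minus F difference it was 5.27% with limma voom, 0% with the nuclear share as a covariate and between 1.29% and 4.86% with 1 library left out. No cortex library of Con pairs with one of T0. With the set of 12 library numbers as a replicate block, 16.3% of genes were called within M. For cortex against the other tissues, the animal as a replicate block gave 0.0574%, limma voom with the animal as a random block 0.484% (correlation 0.0374), and the mean of kidney and WAT alone 0.0622%. The cause of these changes was not tested. Among the single genes followed under alternatives, no direction reversed for a gene called in either of the fits compared. Changes of sign in uncalled genes were not counted, and this check did not cover all genes called. Of the values for single genes under alternatives, 3040 kept their side of the threshold, 170 lost a call and 8 gained one. Calls at low depth or near the threshold, such as Calb2, Ecrg4, Fos and Folr1, were lost most often.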
